A study of Homo sapiens with 24 samples.

Results

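HMOX1 and 8 further genes of the NRF2 response were examined in Panc-1, a cell line derived from a carcinoma of the human pancreatic duct, with and without doxycycline (Dox). The genes were HMOX1, NQO1, GCLC, GCLM, TXNRD1, SRXN1, SLC7A11, NFE2L2 and KEAP1, taken by name, and all 9 were found among the 13519 genes listed in all 3 tables (14409 genes in any table). HMOX1 was selected on measured values of the series itself: without the library Tet-One Dox 1, HMOX1 was the single gene called for Dox alone, 1 of 13405 genes tested (0.00746%). Dox against Control in Tet-One is therefore given as a description without a test for all 9 genes. The study placed acinar transcription factors back into pancreatic cancer cells and compared the transcriptomes with and without induction. The Tet-One line carried the empty inducible plasmid, the Tet-MIST1 line the plasmid with the rat MIST1 open reading frame, and the Tet-PTF1a line the plasmid with the mouse PTF1a open reading frame, the latter 2 with a myc tag. Each line was a stable clone kept after selection with puromycin, at passage 32 for Tet-One and Tet-PTF1a and at passage 33 for Tet-MIST1, so that the line and its clone cannot be told apart, nor, where Tet-MIST1 is compared with another line, the line and its passage. Each line gave 4 replicate libraries of polyadenylated RNA without Dox (Control) and 4 from cells kept for 72 h with Dox at 1 µg/ml. There were 24 libraries in all. Within Tet-MIST1 and within Tet-PTF1a, the induced factor and Dox itself cannot be told apart. The response of neither line was tested against that of Tet-One.

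NRF2, the product of NFE2L2, is a transcription factor that raises the genes of the antioxidant and detoxification response. KEAP1 is the adaptor of a ubiquitin ligase that holds NRF2 low until electrophiles or oxidants modify it. NRF2 pairs with small MAF proteins on antioxidant response elements (AREs), and BACH1 represses many of the same genes, HMOX1 above all, until heme releases it. The targets divide the work. HMOX1 opens heme into biliverdin, iron and carbon monoxide, NQO1 reduces quinones, GCLC and GCLM form the enzyme that begins glutathione synthesis, and SLC7A11 imports the cystine which that synthesis uses. TXNRD1 reduces thioredoxin and SRXN1 repairs peroxiredoxins. In pancreatic tumors this program is known for its part in the tolerance of oxidants and drugs.

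The proximal promoters are shown for the 2 genes that carried an ARE core and were called in a comparison of Dox responses described here. Of the 9 genes, 7 had an entry among the RefSeq promoters used (GRCh38.p14, 250 bases before to 50 after each start), with 10 promoters in all, and HMOX1 and SLC7A11 had none. The ARE core TGACNNNGC, read on both strands, was found in 4 of these 10 promoters, in GCLM, KEAP1 and TXNRD1, against 13.3% of all 35116 promoters. The longer form TGACTCAGC, 1 of the forms the core allows, was in none of the 10 and in 0.561% of all promoters. The E box CAGCTG, a motif bound by MIST1 and PTF1a dimers, was in 2 of the 10, in KEAP1 and NFE2L2, against 17.9% of all. These matches are letters in a window of 300 bases and were not read as bound sites. Each sequence below runs 5′ to 3′ from 130 bases before the start to 10 bases after it, and capitals mark the ARE core on either strand.
GCLM, chr1:93909421-93909560, minus strand, 1 match beginning 34 bases before the start: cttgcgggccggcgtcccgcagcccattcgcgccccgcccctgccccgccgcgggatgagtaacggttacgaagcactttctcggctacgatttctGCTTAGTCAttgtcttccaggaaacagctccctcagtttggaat
TXNRD1 upstream promoter, chr12:104215649-104215788, plus strand, 2 matches beginning 99 and 8 bases before the start: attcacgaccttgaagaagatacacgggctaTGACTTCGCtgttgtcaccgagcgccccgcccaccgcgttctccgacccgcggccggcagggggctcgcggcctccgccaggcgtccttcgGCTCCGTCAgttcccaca
TXNRD1 downstream promoter, chr12:104286902-104287041, plus strand, 1 match beginning 102 bases before the start: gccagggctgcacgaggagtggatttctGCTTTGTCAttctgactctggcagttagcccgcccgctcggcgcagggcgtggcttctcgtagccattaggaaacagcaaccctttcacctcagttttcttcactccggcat

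The counted reads per library ran from 35863825 to 41648040 in Tet-One, from 33402628 to 42510942 in Tet-MIST1 and from 17210989 to 43018494 in Tet-PTF1a, and no library had fewer than 436 reads on any of the 9 genes. Tet-One Dox 1 stood apart: in log2 CPM, genes with exons under 1500 bases lay by a median of 0.59 above their mean over the Tet-One libraries and genes with exons over 5000 bases lay 0.45 below it. In Tet-MIST1 Dox 1 these medians were 0.24 and -0.19, and in the other 22 libraries they ran from -0.12 to 0.04 for the short genes and from -0.03 to 0.10 for the long genes. All 6 ductal markers (KRT7, KRT8, KRT18, KRT19, SOX9 and EPCAM) were present, with a summed level of 1700 to 8102 CPM per library. Of the markers of other cells, 2 of 9 acinar (PRSS1 and CEL), 2 of 5 fibroblast (COL1A1 and ACTA2), 1 of 4 immune (CD68), 0 of 4 endocrine and 0 of 3 endothelial genes were listed. In Tet-PTF1a, Control against Dox, the summed level was 3448 to 3619 against 1732 to 1784 CPM for the ductal, 0.546 to 0.849 against 3.27 to 4.33 CPM for the acinar, 150 to 157 against 64.1 to 66.4 CPM for the fibroblast and 62.9 to 68.9 against 30.7 to 35.4 CPM for the immune markers. The members did not move together: KRT8, KRT18, KRT19 and EPCAM fell while KRT7 rose by 1.64 and SOX9 by 0.30 on the log2 scale, and of the acinar pair PRSS1 rose while CEL had a log2 fold change of 0.04 that did not pass. In Tet-MIST1 CD68 fell by 0.27 (249 to 254 CPM in Control, 197 to 235 CPM in Dox) and SOX9 by 0.18, and no other marker tested passed. The part of these markers in the results of either line was not tested.

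On a scale that allows genes to be compared, deposited CPM per kilobase of exon, TXNRD1 was the most abundant of the 9 transcripts and SLC7A11 the least in each of the Control groups. In Tet-One Control the mean levels were 116 ± 3.60 for TXNRD1, 57.3 ± 2.67 for NQO1, 47.0 ± 2.90 for NFE2L2, 38.1 ± 1.78 for HMOX1, 36.0 ± 2.85 for KEAP1, 22.1 ± 0.745 for SRXN1, 8.38 ± 0.305 for GCLC, 6.89 ± 0.194 for GCLM and 3.92 ± 1.30 for SLC7A11 (CPM per kilobase, SD, n = 4). HMOX1 and KEAP1, neighbours in that order, did not differ beyond their spread. In Tet-PTF1a Control the order changed, with NFE2L2 at 65.4 ± 3.75, NQO1 at 50.6 ± 0.565 and KEAP1 at 30.4 ± 1.03 all above HMOX1 at 16.4 ± 0.849 and SRXN1 at 17.4 ± 0.420 (CPM per kilobase, SD, n = 4). The last 2 did not differ beyond their spread there. The levels of all 9 genes in the 24 libraries are drawn in the plot of CPM by group.

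**Figure D1:**
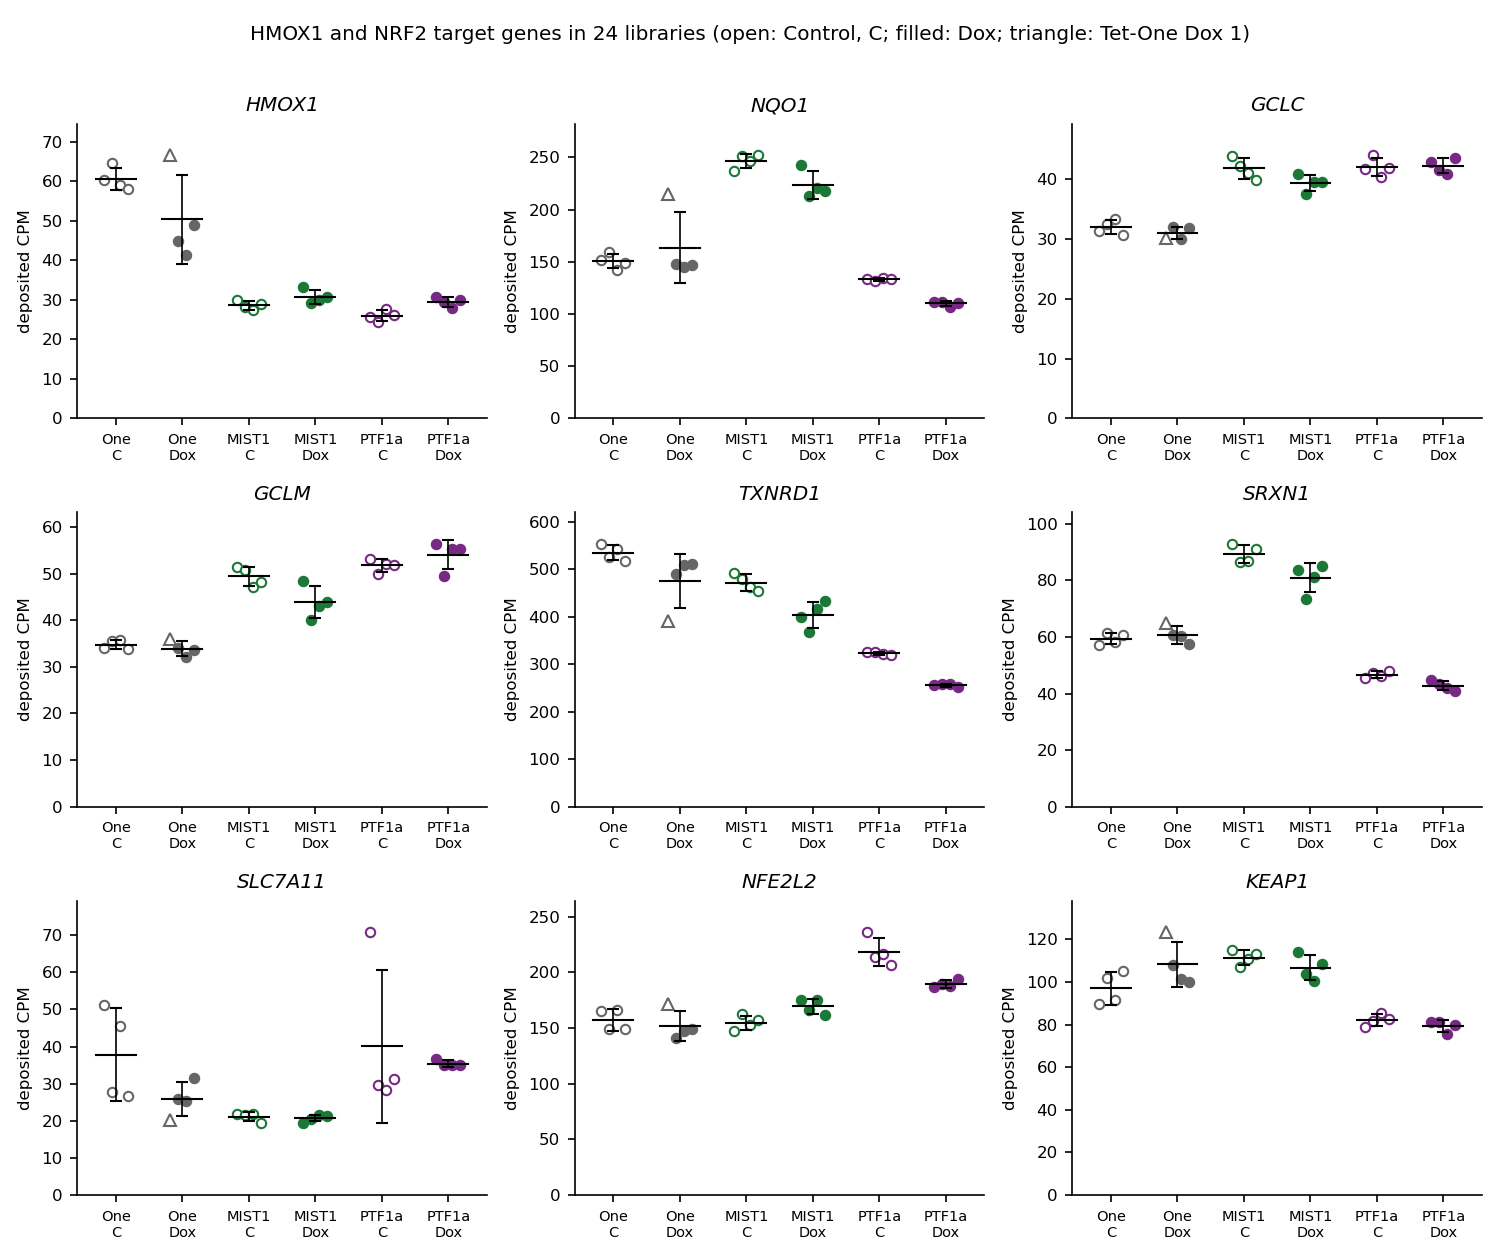
Deposited CPM (y axis, from 0) of the 9 genes in the 6 groups, 1 point per library (open, Control; filled, Dox; triangle, Tet-One Dox 1), with the mean and SD of 4 libraries in black. HMOX1 lies between 58.1 and 64.5 CPM in Tet-One Control and between 24.4 and 33.2 CPM in all Tet-MIST1 and Tet-PTF1a libraries; the CPM of the 3 lines were scaled in separate tables.

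In Tet-One, HMOX1 (chromosome 22, 35777060 to 35790207, plus strand, all gene positions in hg19) was lower in 3 of the 4 Dox libraries than in any Control library. The 4 Control libraries held 60.3, 64.5, 59.0 and 58.1 CPM, and Dox 1 to Dox 4 held 66.6, 44.8, 41.2 and 48.9 CPM. Dox 1 was the highest of the 8 libraries, and without it the groups did not overlap. In these bulk libraries fewer cells with the transcript and less of it per cell cannot be told apart. With all 8 libraries the log2 fold change was -0.26 (standard error 0.142), and without Dox 1 it was -0.42 (standard error 0.057), a level 0.745 times that of Control. These are the values on which HMOX1 was chosen, and they carry no test. Each library was then corrected for its trend with exon length and GC content, a choice made after the data were seen. The log2 fold change of HMOX1 over all 8 libraries was then -0.335. HMOX1 in Dox 1 stood at 5.78 (log2 CPM), above the other Dox libraries (at most 5.64) and below the Control libraries (5.82 to 5.97). The other genes examined all moved up in Dox 1 under this correction, as NQO1 from 7.72 to 7.75 and GCLM from 5.14 to 5.42. NQO1, GCLC, GCLM, SRXN1, NFE2L2 and KEAP1 were then highest in Dox 1 of all 8 libraries, and TXNRD1 and SLC7A11 were not.

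Of the other 8 genes, in the same Tet-One libraries without Dox 1, 6 had a log2 fold change below 0 and 2 (SRXN1 and KEAP1) one above 0. NQO1 was at 142 to 159 CPM in Control and at 148, 145 and 147 CPM in Dox 2 to Dox 4, while Dox 1 reached 215 CPM. Its log2 fold change was 0.12 with all libraries and -0.04 without Dox 1. TXNRD1 was at 517 to 554 CPM in Control and 391 to 512 CPM in Dox, with Dox 1 the lowest library. The groups did not overlap, and the log2 fold change was -0.17 with and -0.09 without Dox 1. GCLC, GCLM, SRXN1 and NFE2L2 differed by -0.04 to 0.04 on the log2 scale with all libraries and by -0.11 to 0.01 without Dox 1. KEAP1 differed by 0.16 with and 0.09 without Dox 1, and SLC7A11, uneven within Control, by -0.55 and -0.45.

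With MIST1 induced, the 9 genes moved little, and TXNRD1 and NFE2L2 passed the test. Of the 9, 2 were DEGs (FDR under 0.05 in edgeR's quasi-likelihood test, adjusted over all 13621 genes tested), 1 higher and 1 lower. Over all genes tested 20.6% were DEGs, 11.9% higher and 8.77% lower, so the share of the 9 was near that of all genes. The median log2 fold change of the 9 was -0.08, against 0.00 over all genes.

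TXNRD1 (chromosome 12, 104609557 to 104744085, plus strand) held 494, 479, 462 and 454 CPM in Tet-MIST1 Control and 401, 368, 416 and 433 CPM in Dox. Every Dox library lay below every Control library, and it fell by 0.21 on the log2 scale (standard error 0.055, FDR 0.0191). This call was lost without Control 1 and without Control 2 and when the length and GC trend was removed, with log2 fold changes of -0.19, -0.21 and -0.145. NFE2L2 (chromosome 2, 178095031 to 178129859, minus strand) held 147, 162, 152 and 157 CPM in Control and 175, 166, 175 and 162 CPM in Dox. Its highest Control and lowest Dox library overlapped, and it rose by 0.14 on the log2 scale (standard error 0.046, FDR 0.0474 in edgeR's quasi-likelihood test). Leaving out 1 library at a time kept this call in 2 of 8 cases, those without Dox 1 or Dox 2, and it was also lost with library size in place of TMM and with all 24 libraries in one fit.

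HMOX1 in Tet-MIST1 was at 29.9, 28.1, 27.3 and 29.0 CPM in Control and at 33.2, 29.1, 30.0 and 30.8 CPM in Dox. The groups overlapped, and the log2 fold change of 0.12 (standard error 0.056) did not pass (FDR 0.151 in the same edgeR test). SRXN1 (chromosome 20, 627268 to 634014, minus strand) was lower in every Dox library (73.6 to 85.3 CPM) than in every Control library (86.5 to 93.0 CPM) a difference of -0.13 on the log2 scale that did not pass (FDR 0.104 in edgeR). Only TXNRD1 and SRXN1 of the 9 had groups that did not overlap in CPM, against 27.1% of all genes tested. NQO1 (chromosome 16, 69743304 to 69760571, minus strand) had a log2 fold change of -0.13 and GCLM (chromosome 1, 94350756 to 94375154, minus strand) one of -0.16, with FDR 0.0791 and 0.0827 in edgeR. NQO1 was a DEG with library size in place of TMM (-0.14) and with the length and GC trend removed (-0.15), so that under library size both DEGs of the 9 were lower. Without Tet-MIST1 Dox 1, the library with the milder length trend, 5 of the 9 genes were DEGs: NQO1, GCLM, TXNRD1 and SRXN1 lower and NFE2L2 higher. The share of all genes called in that fit was not taken, so this count cannot be set against it. Without Control 1 or Control 2 none was a DEG, and 1 was without Control 3, Control 4, Dox 3 or Dox 4.

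With PTF1a induced, HMOX1 rose while NQO1, TXNRD1, SRXN1 and NFE2L2 fell. These 5 of the 9 genes were DEGs, 1 higher and 4 lower. Over all 14051 genes tested 48.2% were DEGs, 23.8% higher and 24.4% lower, and the median log2 fold change of the 9 was -0.13, against 0.00 over all genes. The groups of the same 5 genes did not overlap in CPM, as was so for 42.3% of all genes tested. Each of the 5 calls held in all 8 fits that left out 1 library.

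HMOX1 held 25.7, 24.4, 27.7 and 26.2 CPM in Tet-PTF1a Control and 30.7, 29.3, 27.9 and 29.8 CPM in Dox. All Dox libraries were above all Control libraries, though the lowest Dox library (27.9 CPM) was close to the highest Control library (27.7 CPM). The log2 fold change was 0.18 (standard error 0.046, FDR 0.00120 in edgeR's quasi-likelihood test), a level 1.13 times that of Control. With all 24 libraries in one fit, HMOX1 and SRXN1 were not DEGs. That fit takes its spread, its scaling and its set of genes from all lines, and the part of each was not tested.

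TXNRD1 showed the steadiest fall, from 325, 327, 321 and 320 CPM in Control to 256, 258, 259 and 252 CPM in Dox. The spread within each group was small beside the gap, and the log2 fold change was -0.34 (standard error 0.022, FDR 1.15e-18 in edgeR). NQO1 held 134, 131, 135 and 133 CPM in Control and 111, 112, 107 and 110 CPM in Dox, and its log2 fold change was -0.27 (FDR 1.84e-12 in edgeR). NFE2L2 held 236, 214, 217 and 207 CPM in Control and 186, 190, 188 and 194 CPM in Dox. It fell by 0.20 on the log2 scale (FDR 1.18e-05 in edgeR), with Control 1 the highest library. SRXN1 was at 45.5 to 47.9 CPM in Control and at 41.0 to 45.0 CPM in Dox, a log2 fold change of -0.13 (FDR 0.00377 in edgeR).

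The 2 subunits of glutamate-cysteine ligase and KEAP1 stayed near their Control levels in Tet-PTF1a. GCLC (chromosome 6, 53362140 to 53409927, minus strand), the catalytic subunit, was at 40.4 to 44.0 CPM in Control and at 40.8 to 43.6 CPM in Dox. GCLM, the modifier subunit, was at 49.9 to 53.3 CPM in Control and at 49.5 to 56.4 CPM in Dox. KEAP1 (chromosome 19, 10596796 to 10614054, minus strand) was at 78.7 to 85.5 CPM in Control and at 75.5 to 81.1 CPM in Dox. Their log2 fold changes were 0.01, 0.06 and -0.04, with standard errors of 0.039, 0.037 and 0.032 and FDRs of 0.804, 0.201 and 0.250 in edgeR. With library size in place of TMM GCLM was a DEG (log2 fold change 0.10), as it was without Dox 2, and with the length and GC trend removed KEAP1 was a DEG (-0.07).

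**Figure D2:**
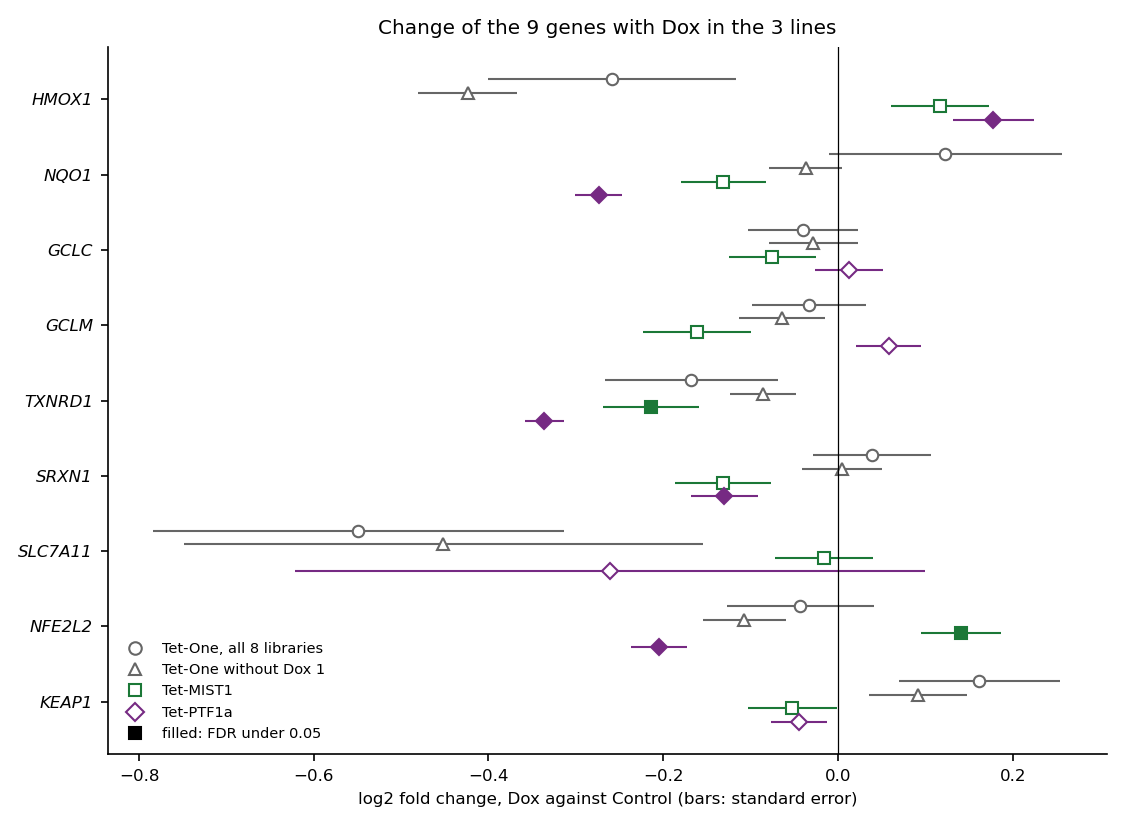
Log2 fold change of Dox against Control for the 9 genes (x axis; bars, standard error), with filled symbols for FDR under 0.05 in Tet-MIST1 and Tet-PTF1a and open symbols otherwise; Tet-One is shown without a test, with all 8 libraries and without Dox 1. HMOX1 is at -0.42 in Tet-One without Dox 1 and at 0.18 in Tet-PTF1a, and TXNRD1 is left of 0 in all 3 lines.

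SLC7A11 (chromosome 4, 139085248 to 139163503, minus strand) was set by single libraries. In Tet-PTF1a it held 70.8, 29.7, 28.2 and 31.4 CPM in Control and 36.6, 34.97, 35.02 and 35.03 CPM in Dox. The Dox libraries were alike, and Control 1 stood far above the other 3 Control libraries. The log2 fold change was -0.26 (standard error 0.361, FDR 0.601 in edgeR) with all libraries, and without Control 1 SLC7A11 rose by 0.24 (FDR 1.72e-05 in edgeR, from 1.72e-05 to 0.686 over the fits that left out 1 library). In Tet-One it held 51.3, 27.6, 45.6 and 26.6 CPM in Control and 20.3, 25.8, 25.4 and 31.5 CPM in Dox, so that Control 1 and Control 3 were high. In Tet-MIST1 it was even, at 19.4 to 21.9 CPM in Control and 19.5 to 21.5 CPM in Dox.

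The same libraries were high in a list of ATF4 and its targets. ATF4 is the transcription factor of the amino acid response, which also acts on SLC7A11. The median log2 difference of the 12 genes of this list from the median of their line was 0.60 in Tet-One Control 1 and 0.34 in Tet-One Control 3. It was 0.65 in Tet-PTF1a Control 1 and ran from -0.27 to 0.26 in the other 21 libraries. The 0.26 belonged to Tet-One Dox 1, where ASNS was at 369 CPM while SLC7A11, at 20.3 CPM, was lowest of the line. ASNS, which makes asparagine, was at 452 and 379 CPM in Tet-One Control 1 and Control 3 and at 269 and 274 CPM in Control 2 and Control 4. In Tet-PTF1a Control 1 it was at 228 CPM, against 129 to 134 CPM in the other 3 Control libraries. The part of these libraries' state in the SLC7A11 values was not tested.

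**Figure D3:**
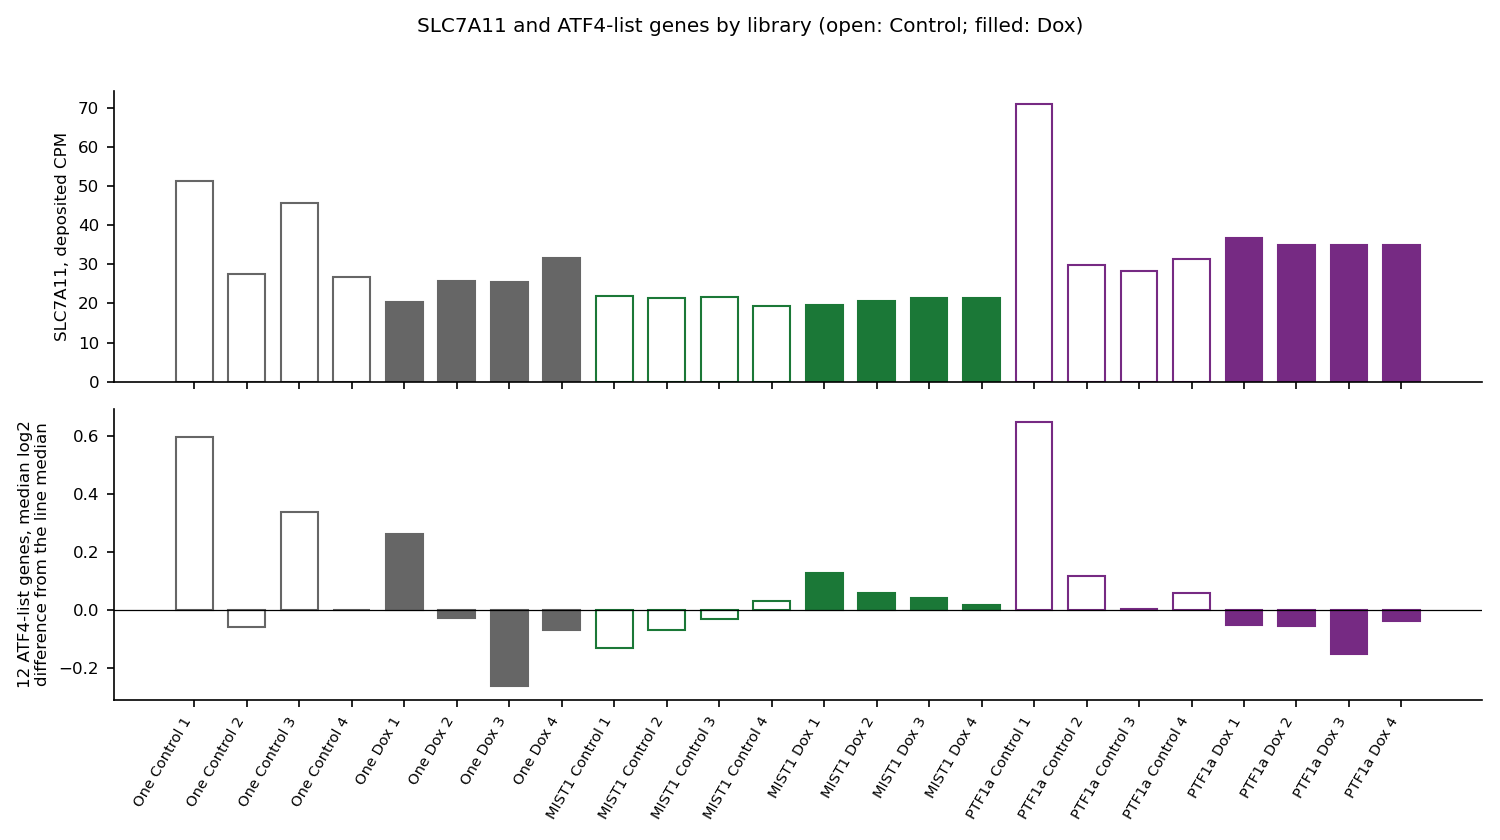
SLC7A11 in deposited CPM (upper bars, from 0) and the median log2 difference of 12 ATF4-list genes from the median of their line (lower bars) in each of the 24 libraries, open for Control and filled for Dox. Tet-One Control 1 and Control 3 and Tet-PTF1a Control 1 are the 3 tallest in both panels.

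GCLM and NFE2L2 were called for a different response to Dox in the Tet-PTF1a and Tet-MIST1 lines. In this comparison the factor, the clone and the passage cannot be told apart. In the test of the interaction of line and Dox over the 16 Tet-MIST1 and Tet-PTF1a libraries, these 2 of the 9 genes were called, 1 in each direction, against 36.4% of all 13519 genes tested (17.8% higher and 18.6% lower in Tet-PTF1a). The difference for NFE2L2, the response in Tet-PTF1a minus that in Tet-MIST1, was -0.335 on the log2 scale (standard error 0.060, FDR 0.000173 in edgeR's quasi-likelihood test), and it was called in all 16 fits that left out 1 library. For GCLM it was 0.23 (standard error 0.078, FDR 0.0241 in edgeR), called in 11 of the 16, although GCLM was a DEG in neither line alone. The GCLM call was lost without Tet-MIST1 Control 1 or without Tet-PTF1a Control 4, Dox 1, Dox 3 or Dox 4. It was 0.14 and not called with the length and GC trend removed. TXNRD1 and NQO1, lower with Dox in both lines, had differences of -0.11 and -0.13 that were not called (FDR 0.149 and 0.0744 in edgeR). With the length and GC trend removed both were called, at -0.23 and -0.15, as they were without Tet-MIST1 Dox 2, at -0.155 and -0.157. For HMOX1 the difference was 0.07 (standard error 0.075, FDR 0.474 in edgeR).

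Without Dox, the 3 lines differed in nearly all of these genes. HMOX1 was highest in Tet-One, with 58.1 to 64.5 CPM, against 27.3 to 29.9 CPM in Tet-MIST1 and 24.4 to 27.7 CPM in Tet-PTF1a. From counts normalised together, its log2 difference from Tet-One was -1.09 in Tet-MIST1 and -1.30 in Tet-PTF1a, without a test because the Tet-One Control libraries took part in the choice of HMOX1. Of the other 8 genes, 7 were called in Tet-MIST1 Control against Tet-One Control, 5 higher and 2 lower, where 80.2% of all 13823 genes were called (39.5% higher and 40.7% lower). In Tet-PTF1a against Tet-One 7 of the 8 were called, 3 higher and 4 lower, where 79.7% of all 13442 genes were called (39.5% higher and 40.2% lower). These 2 comparisons share the Tet-One Control libraries, and their shares were near those of all genes.

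Tet-MIST1 Control held more NQO1 (log2 difference 0.71), SRXN1 (0.58), GCLM (0.50), GCLC (0.38) and KEAP1 (0.19) and less SLC7A11 (-0.85) and TXNRD1 (-0.19) than Tet-One Control. Tet-PTF1a Control held more GCLM (0.49), NFE2L2 (0.39) and GCLC (0.31) and less TXNRD1 (-0.81), SRXN1 (-0.43), KEAP1 (-0.33) and NQO1 (-0.26) than Tet-One Control. With the length and GC trend removed, the Tet-MIST1 difference of KEAP1 was 0.07 and that of NFE2L2 -0.14, both called. Under the same setting the Tet-PTF1a difference of GCLM turned to -0.11 and remained called, and those of GCLC and KEAP1 were not called. TXNRD1 was lower than in Tet-One in both lines under this setting too, at -0.28 in Tet-MIST1 and -1.14 in Tet-PTF1a.

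Directly compared, Tet-PTF1a Control and Tet-MIST1 Control differed in 7 of the 9 genes, 2 higher and 5 lower in Tet-PTF1a, against 86.3% of all 13483 genes (42.9% higher and 43.4% lower). SRXN1 held 45.5 to 47.9 CPM in Tet-PTF1a and 86.5 to 93.0 CPM in Tet-MIST1, a log2 difference of -1.01 (standard error 0.035, FDR 2.06e-21 in edgeR's quasi-likelihood test). NQO1 differed by -0.97, TXNRD1 by -0.62, KEAP1 by -0.52 and NFE2L2 by 0.42, and with the length and GC trend removed KEAP1 differed by -0.12 and was still called. HMOX1 differed by -0.21 (FDR 9.53e-05 in edgeR), but with the length and GC trend removed it differed by 0.33 in the opposite direction and was again called. SLC7A11 differed by 0.91 (FDR 0.0450 in edgeR), by 0.43 without Tet-PTF1a Control 1, by 0.88 to 0.94 and not called without any 1 of the Tet-MIST1 Control libraries, and by -0.12, not called, with the trend removed. GCLC and GCLM differed by -0.07 and -0.005 and were not called, and with the trend removed both were lower in Tet-PTF1a, by -0.29 and -0.58.

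**Figure D4:**
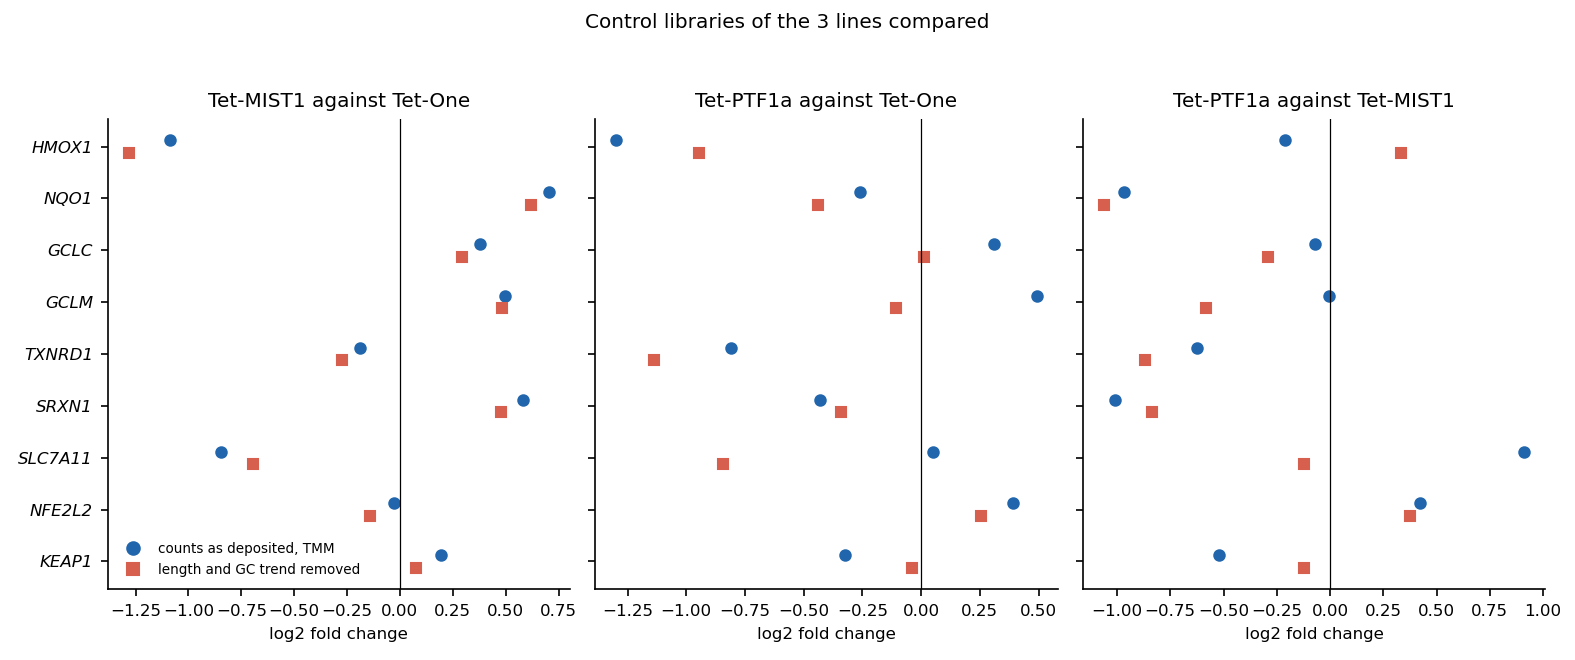
Log2 difference of each of the 9 genes between the Control libraries of 2 lines (x axis), from counts with TMM scaling (circles) and after correction of each library for exon length and GC content (squares). HMOX1 is far left of 0 in both comparisons with Tet-One, and in Tet-PTF1a against Tet-MIST1 it moves from -0.21 to 0.33.

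A list of 62 other genes of the NRF2 pathway, written from general knowledge, was read in the same fits, and 55 of them were listed in all 3 tables. With MIST1 induced, 14 of 54 list genes tested were DEGs (25.9%), 13 higher and 1 lower, against 20.6% of all genes, 11.9% higher and 8.77% lower. The median log2 fold change was 0.04, against 0.00 over all genes. With the length and GC trend removed the split was 12 higher and 5 lower. The list count was 9 without Control 1, without Control 2 or without Control 3. The shares of all genes called in these other fits were not taken, so these counts cannot be set against them.

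The roles are described by their counts, to be read against those shares of all genes. In the glutathione group 5 of 11 genes rose and none fell, and GSTP1, GSTM3 and GSTA4, named after their values were seen, were among the 6 that did not pass, with log2 fold changes of 0.03, 0.07 and 0.19. GGT1, which cleaves extracellular glutathione, had 2.52 ± 0.292 CPM in Control and 4.48 ± 0.462 CPM with Dox (SD, n = 4), up by 0.84 on the log2 scale (FDR 0.000359 in edgeR). GSTM2 rose by 0.53 and GSTM4 by 0.28, and reads of these near-identical glutathione transferase genes could be assigned to either. GLRX, a glutaredoxin, rose by 0.33 and MGST1, a microsomal transferase, by 0.33, the latter a DEG in 1 of the 8 fits that left out 1 library. In the detoxification and efflux group 5 of 14 genes rose and 1 fell. AKR1B1, an aldose reductase, had 92.4 ± 1.53 CPM in Control and 133 ± 10.4 CPM with Dox (SD, n = 4), up by 0.54 on the log2 scale (FDR 7.80e-05 in edgeR), and OSGIN1 rose by 0.44, the epoxide hydrolase EPHX1 by 0.33 and the quinone reductase NQO2 by 0.28, a call lost without Control 3. ABCB6, a porphyrin transporter, rose by 0.38 and was the only DEG of 6 genes tested in the heme and iron group. Of the regulators and partners 2 of 14 rose, and no gene of the NADPH supply group (6 genes) or the thioredoxin group (3 genes) was a DEG.

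With PTF1a induced, 30 of 55 list genes were DEGs (54.5%), 8 higher and 22 lower, against 48.2% of all genes, 23.8% higher and 24.4% lower. The counts by role below are to be read against those shares. The median log2 fold change of the list was -0.08, against 0.00 over all genes. The efflux pumps ABCC1, ABCC3 and ABCC4, ferritin chains and several genes of NADPH supply fell, and the small MAF partners MAFF and MAFK rose.

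ABCC3, an exporter of glucuronide and glutathione conjugates, had the largest change of the list, from 52.7 to 53.9 CPM in Control to 11.7 to 13.2 CPM in Dox. Its log2 fold change was -2.13 (standard error 0.047, FDR 6.41e-38 in edgeR's quasi-likelihood test). The related pumps ABCC1 and ABCC4 fell by 0.40 and 0.33. ABCC2, named after its values were seen, did not pass (log2 fold change -0.37, FDR 0.199 in edgeR). In this detoxification and efflux group 6 of 14 genes fell and none rose. In the heme and iron group 6 of 7 fell and none rose, among them the iron exporter SLC40A1 (log2 fold change -0.42). The ferritin chains FTH1 and FTL, named after their values were seen because they store the iron that HMOX1 frees, fell by 0.24 and 0.28, and their many processed copies make the assignment of reads uncertain. In the NADPH supply group 3 of 6 fell and 1 rose. In the glutathione group 4 of 11 fell and none rose, and GLRX, which fell by 0.37, was not a DEG without Control 1. Of the 3 thioredoxin genes 1 rose and 1 fell.

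Of the regulators and partners 6 of 14 rose and 2 fell, and the difference from the other roles was not tested. MAFF, a small MAF protein, had 7.14 ± 0.383 CPM in Control and 12.5 ± 0.709 CPM with Dox (SD, n = 4). It was up by 0.81 on the log2 scale (FDR 7.80e-14 in edgeR), and MAFK rose by 0.45. In Tet-MIST1, read after the values were seen, MAFK rose too, by 0.217 (FDR 0.021 in edgeR), and MAFF did not pass (0.118, FDR 0.271 in edgeR). SQSTM1, the autophagy receptor that binds KEAP1, had 478 ± 10.1 CPM in Control and 336 ± 6.80 CPM with Dox (SD, n = 4), a change of -0.51 on the log2 scale. BACH2 fell by 0.94. BACH1, named after its values were seen, rose by 0.157 here and by 0.235 in Tet-MIST1 (FDR 0.00117 and 0.028 in edgeR). With all 24 libraries in one fit 15 of the list genes were DEGs, 3 higher and 12 lower. The share of all genes called in that fit was not taken, so this count cannot be set against it.

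**Figure D5:**
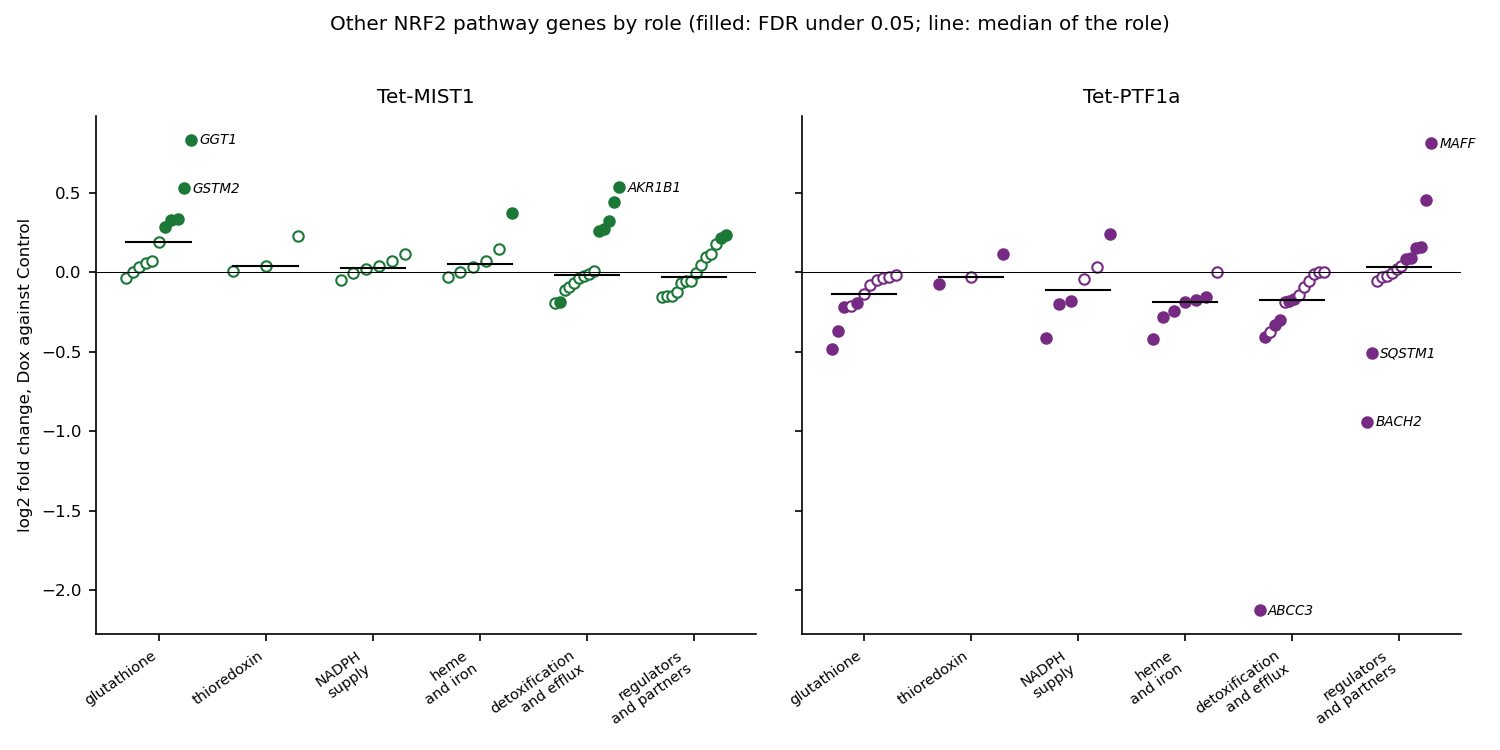
Log2 fold change of Dox against Control (y axis) for the other NRF2 pathway genes, by role, in Tet-MIST1 (54 genes) and Tet-PTF1a (55 genes), 1 point per gene, filled for FDR under 0.05, with a line at the median of each role. In Tet-MIST1 the filled points are above 0 but for 1, and in Tet-PTF1a 22 of 30 are below 0, with ABCC3 at -2.13.

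The genes most like HMOX1 were sought among 12972 genes by Pearson's r in log2 CPM over the 23 libraries without Tet-One Dox 1. The highest were RPS3 (0.962), EFNA3 (0.958), NAT9 (0.957), SNHG1 (0.955) and YIF1A (0.953), and 120 genes exceeded 0.9. These genes share with HMOX1 a higher level in Tet-One than in the other lines, and the 23 points fall into 3 lines with their own clones and depths. When the mean of each line was subtracted first, the 5 values were 0.596, 0.635, 0.467, 0.495 and 0.472. The highest was that of HSPA5 (0.778), an ER chaperone, named after its value was seen. The 23 libraries include the Tet-One Control and Dox libraries on which HMOX1 was chosen. A high r can therefore reflect that chosen contrast, and these values are a description without a test. Of the other genes of the response, TXNRD1 had an r of 0.701 over the lines and -0.205 within them, while GCLC and GCLM were at -0.863 and -0.859 over the lines and 0.207 and 0.320 within them.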

How the data were processed

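Polyadenylated RNA of the 24 libraries was sequenced by the authors, and groups and replicate numbers were taken per the labels. The submitters' processing notes name TopHat, HTSeq, DESeq, edgeR and hg19, with no versions, and the use of strand was not given in the sources used here. Per line, the authors deposited the read count of each gene, unnormalized. They also deposited CPM, a signal scaled by library size within each table, so that values are comparable within a table and not between tables. The authors' own comparison columns (log2 fold change, p-value and FDR) were not used. Each table held 2 rows of a repeated name, which were left out, and 20 names turned into dates.

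From the counts, groups were compared with edgeR 4.0.16 (R 4.3.3) and its quasi-likelihood test (TMM, robust, genes above 0.5 CPM in at least 4 libraries, prior count 2, Benjamini-Hochberg adjustment over all genes tested, FDR under 0.05). Lines were compared in joint fits. DESeq2 1.42.0, library size scaling, other filters, the replicate block, all 24 libraries in one fit, correction of each library for exon length and GC content (natural splines) and each library left out were the alternatives; the trend removal for the line comparisons, the interaction and Tet-One, and 3 settings for Tet-One, were chosen after seeing the data. The test was run on simulated counts first. Every pair of replicates differed by more than sampling noise in a chi-square test. Replicates are biological by the study's methods but share a clone, so that p-values measure the spread within that clone.

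The 9 genes, the lists and the tests were chosen with earlier results of these data known. Named from the pathway list were at most 10 genes per line, those with FDR under 0.05 and Dox and Control libraries not overlapping in CPM with the largest absolute log2 fold change, and the 5 genes most correlated with HMOX1. Other names were added after their values were seen, as stated. A gene that the rule names is not reported here by itself.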

Additional observations from a re-analysis of the deposited data

Results flagged for a closer look

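Within the groups of 4 libraries, 54 groups of gene and condition were looked at for a single distant library, of which chance alone marks about 1 in 20, and 3 stood out by Dixon's ratio. NQO1 in Tet-One Dox 1 was at 215 CPM with the others at 145 to 148 CPM, a gap of 0.963 of the group's range. This was the library whose short genes were high as a whole. NQO1 has 2629 exon bases and was not among those short genes (under 1500). With the length and GC trend removed NQO1 stood at 7.75 in that library, against 7.72 before (log2 CPM). The part of that trend in this value was not tested. SLC7A11 in Tet-PTF1a Control 1 was at 70.8 CPM, a gap of 0.926 of the range, in a library where ATF4-list genes were high too. SLC7A11 in Tet-PTF1a Dox 1 was at 36.6 CPM with the others between 34.97 and 35.03 CPM, a gap of 0.964 of a very narrow range.

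Responses to Dox differed between the Tet-PTF1a and Tet-MIST1 lines for 2 of the 9 genes by the interaction test of edgeR, against 36.4% of all 13519 genes. The difference, Tet-PTF1a minus Tet-MIST1 on the log2 scale, was 0.232 for GCLM and -0.335 for NFE2L2. The GCLM call held in 11 of the 16 fits that left out 1 library. It was lost with all 24 libraries in one fit and with the length and GC trend removed.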

How the results depend on the processing

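Of the counts of calls recomputed, 107 stayed within 1.5 times their value and 21 did not. The shares of all genes called were not taken in the recomputed fits, so the counts cannot be set against them. In Tet-MIST1 the 2 calls became 0 with the replicate block and 1 with all 24 libraries in one fit, and from 0 to 5 when 1 library was left out. In Tet-PTF1a the 5 calls became 3 with all 24 libraries in one fit and stayed from 5 to 6 when 1 library was left out. The calls on the difference of responses, 2, became 1 with all 24 libraries and from 1 to 4 with 1 library left out. The pathway list went from 14 to between 9 and 18 in Tet-MIST1 with 1 library left out, and from 30 to 15 in Tet-PTF1a with all 24 libraries in one fit. The fit of all 24 libraries takes its spread from Tet-One too. The coefficient of variation between libraries was 14.4% in Tet-One, 4.80% in Tet-One without Dox 1 and 2.80% in Tet-PTF1a. The cause of these changes was not tested.

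Signs that turned belonged mostly to values near 0. With the length and GC trend removed, the log2 fold change was 0.081 for SLC7A11 in Tet-MIST1, and -0.044 for GCLC and -0.013 for GCLM in Tet-PTF1a. Between Control libraries the same setting gave 0.33 for HMOX1 and -0.12 for SLC7A11 in Tet-PTF1a against Tet-MIST1, and -0.11 for GCLM and -0.84 for SLC7A11 in Tet-PTF1a against Tet-One. GCLM in Tet-PTF1a against Tet-MIST1 was 0.004 with DESeq2, 0.02 with library size and 0.008 with all 24 libraries, and NFE2L2 in Tet-MIST1 against Tet-One was 0.032 with library size. Leaving out 1 library gave -0.053 to 0.014 for SLC7A11 in Tet-MIST1, -0.008 to 0.03 for GCLC and -0.40 to 0.24 for SLC7A11 in Tet-PTF1a, -0.33 to 0.27 for the difference of SLC7A11, -0.022 to 0.02 for GCLM in Tet-PTF1a against Tet-MIST1, -0.066 to 0.007 for NFE2L2 in Tet-MIST1 against Tet-One, and -0.42 to 0.24 for SLC7A11 in Tet-PTF1a against Tet-One.

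The replicate numbers did not pair the libraries: the correlation of deviations of same-numbered libraries ran from -0.444 to 0.39, so the replicate block is given only here. With it 0 of the 9 genes were called in Tet-MIST1, 5 in Tet-PTF1a, 2 in the interaction, and SLC7A11 was -0.015 in Tet-PTF1a against Tet-One; TXNRD1 and NFE2L2 in Tet-MIST1 and SLC7A11 between the Tet-PTF1a and Tet-MIST1 Control libraries were the genes of the 9 that lost a call under the block.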

Other observations

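Metallothioneins bind zinc and other metals and often move with HMOX1 in metal stress. MT2A and MT1E fell in Tet-PTF1a while HMOX1 rose there. Of 6 genes of a metallothionein and zinc list tested, 5 fell and none rose, against 24.4% of all genes lower. Among the 5 were SLC30A1, not a metallothionein, and MT1F and MT1M, which were low (Control means of 1.25 and 0.885 CPM). MT1X did not pass (log2 fold change -0.1, FDR 0.263 in edgeR). MT2A went from 250 to 79.6 CPM (group means, log2 fold change -1.66, FDR 5.74e-43 in edgeR's quasi-likelihood test) and MT1E from 47.6 to 19.8 CPM (log2 fold change -1.27). The metallothionein genes are near-identical, so reads could be assigned to either copy. In Tet-MIST1 1 of 5 was a DEG, MT1E, which rose by 0.39. Of 10 heat shock genes, 2 rose in each line and none fell, HSPA1A and HSPA1B in Tet-MIST1 and HSPA1B and HSPB1 in Tet-PTF1a, by 0.12 to 0.21 on the log2 scale, a share near that of all genes in Tet-MIST1 (20.6% called) and below it in Tet-PTF1a (48.2%), and HSPA1A and HSPA1B are near-identical copies.

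On the supply side of heme, 2 of 9 genes of heme synthesis and transport were DEGs in Tet-MIST1 and 6 of 9 in Tet-PTF1a (2 higher and 4 lower), against 20.6% and 48.2% of all genes. ALAS1, the rate-limiting enzyme of heme synthesis outside red blood cells, fell by 0.33 on the log2 scale in Tet-MIST1 (175 to 138 CPM, group means, FDR 0.000939 in edgeR) and rose by 0.25 in Tet-PTF1a (70.1 to 82.9 CPM, FDR 8.06e-09 in edgeR). In the interaction of line and Dox 4 of the 9 genes were called, 2 in each direction, against 36.4% of all genes. FLVCR1, a heme exporter, rose by 0.38 in Tet-PTF1a, and HMOX2, the constitutive heme oxygenase, fell by 0.18. Of 12 ATF4-list genes, 4 rose and 1 fell in Tet-MIST1 and 4 fell and none rose in Tet-PTF1a. Of all genes, 11.9% were higher and 8.77% lower in Tet-MIST1, and 23.8% and 24.4% in Tet-PTF1a. The Tet-PTF1a Control group holds the library that stood high in the list. The groups of the 4 that fell (ATF4, DDIT3, CHAC1 and DDIT4) did not overlap in CPM. CHAC1 was at 16.5 to 28.8 CPM in Control and at 7.47 to 9.90 CPM in Dox. The part of that library in these falls was not tested.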
